A study of Mus musculus with 30 samples.

Results

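Rapid immediate early genes were followed across the hippocampi of 30 mice. The group held 10 genes, Arc, Fos, Fosb, Junb, Egr1, Egr2, Npas4, Nr4a1, Ier2 and Dusp1, of the 49315 genes in the count table, and all 10 were among the 16486 genes that passed the filter on low counts. They were chosen as a list by name, with the comparison of TIMP2 KO and WT mice already known, so their values in that comparison are given as a description. Hippocampi came from C57BL/6J mice that were either TIMP2 KO (7 females and 6 males) or WT (7 females and 10 males). The KO is constitutive, not limited to a cell type, and neither the age of the mice nor the time of day at dissection is given in the sample labels. RNA was poly(A)-selected and sequenced, and the level of a gene is given as CPM, the counts of the gene scaled to the normalized size of that mouse's library.

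Immediate early genes are transcribed within minutes of a stimulus, without the need for new protein synthesis. In neurons, calcium entry and MAP kinase signalling act on factors already bound near these genes, CREB at cyclic AMP response elements (CREs) and serum response factor (SRF) at CArG boxes. In the hippocampus the genes are known as markers of recent neuronal activity, for example after exploration of a new place or a seizure. Fos and Fosb dimerize with Jun proteins such as Junb to form the transcription factor AP-1. Egr1 and Egr2 are zinc finger factors, Npas4 is a neuronal basic helix-loop-helix factor that responds to calcium, Nr4a1 is an orphan nuclear receptor, and Ier2 is a nuclear protein linked to transcription. Arc acts at the synapse, where it promotes the removal of AMPA receptors, and Dusp1 is a phosphatase that switches off MAP kinases.

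Promoters are where CREs and CArG boxes of such genes would be looked for, so 5 of them are shown. RefSeq promoter windows (GRCm38.p6) were found for 7 of the 10 genes, in 11 windows. The 250 bases before the start are printed 5′ to 3′ on the strand of the gene, in lower case, with a CRE or its core and a CArG box in capitals. Fos, Egr2 and Npas4 are shown because they varied most between mice, Nr4a1 because its window held the most CRE cores, and Dusp1 because it alone held a full CRE. The windows are Fos chr12:85473640-85473889 (plus strand), Egr2 chr10:67537619-67537868 (plus strand), Npas4 chr19:4989972-4990221 (minus strand), Nr4a1 chr15:101266596-101266845 (plus strand) and Dusp1 chr17:26508473-26508722 (minus strand).
Fos: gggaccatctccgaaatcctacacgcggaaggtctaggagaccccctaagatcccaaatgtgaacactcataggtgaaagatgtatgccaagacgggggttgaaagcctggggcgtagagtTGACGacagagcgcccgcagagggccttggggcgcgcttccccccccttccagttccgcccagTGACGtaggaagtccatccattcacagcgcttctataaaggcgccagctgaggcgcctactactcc
Egr2: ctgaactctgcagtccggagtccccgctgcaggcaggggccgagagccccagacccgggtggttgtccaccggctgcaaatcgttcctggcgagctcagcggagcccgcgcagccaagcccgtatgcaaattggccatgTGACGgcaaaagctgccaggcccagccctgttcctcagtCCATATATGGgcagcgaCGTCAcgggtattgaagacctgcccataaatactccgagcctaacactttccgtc
Npas4: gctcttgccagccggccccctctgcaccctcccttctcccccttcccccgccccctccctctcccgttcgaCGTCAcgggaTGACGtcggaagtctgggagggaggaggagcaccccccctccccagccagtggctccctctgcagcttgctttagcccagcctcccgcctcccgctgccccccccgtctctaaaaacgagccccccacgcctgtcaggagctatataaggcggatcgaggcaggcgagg
Nr4a1: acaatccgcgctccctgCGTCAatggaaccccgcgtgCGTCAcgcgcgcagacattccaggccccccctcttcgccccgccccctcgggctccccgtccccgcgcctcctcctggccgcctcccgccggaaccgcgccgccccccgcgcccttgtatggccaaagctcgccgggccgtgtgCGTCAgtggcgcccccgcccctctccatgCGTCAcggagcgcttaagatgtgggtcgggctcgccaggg
Dusp1: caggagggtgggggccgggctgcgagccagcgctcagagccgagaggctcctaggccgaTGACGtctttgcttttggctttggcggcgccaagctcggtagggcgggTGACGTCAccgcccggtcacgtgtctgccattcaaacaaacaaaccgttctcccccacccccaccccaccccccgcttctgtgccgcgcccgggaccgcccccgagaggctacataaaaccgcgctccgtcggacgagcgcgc

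The CRE core, TGACG on either strand, was found in at least 1 window of each of the 7 genes and in 9 of their 11 windows. Egr2 alone has 5 of the 11, and 3 of those overlap and hold the same 2 cores. Among all 27025 genes with a window 19.8% held the core in at least 1, and among all 32851 windows of that length 17.8% held it. In the Fos window the cores began at positions -129 and -66 from the start, and in the Nr4a1 window there were 4 of them. A full CRE, TGACGTCA, which contains the core on each strand, was present in the Dusp1 window and in 1.55% of all windows. Egr2 held 2 distinct CArG boxes, 1 of them seen in all 3 overlapping windows, and the other 6 genes had none within these bases. A CArG box was held by 1.62% of all genes and 1.47% of all windows. TATAAA was found only in the window of Fos (12.4% of all windows), and the AP-1 site TGANTCA in none of the 11 (6.75% of all windows). Both strands were searched for each motif, and a match describes these letters without showing that a factor binds there.

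Totals lay between 18345517 and 41081083 counts per TIMP2 KO mouse and between 19445246 and 32098386 per WT mouse. Timp2 transcripts lay between 130 and 171 CPM in TIMP2 KO and between 256 and 380 CPM in WT mice, a log2 fold change of -0.999 (SE 0.0528, n = 13 and 17). The groups thus did not overlap, while part of the transcript was still counted in TIMP2 KO mice. Counts summed over the gene cannot tell whether both copies were altered, and the methods state that heterozygous mice were left out. Beyond these genes, choroid plexus markers stood apart in mouse 11, a TIMP2 KO female, where 10 markers summed to 1135 CPM against a median of 157.1 in WT mice. That mouse ranked 15 of 30 from the highest for the rapid genes, near the middle.

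Levels per kilobase of exon (RPKM, computed here from CPM and exon length) put Arc highest, with a median of 36.2, followed by Junb with 28.9 and Egr1 with 22.3. Nr4a1 had a median of 12.2 RPKM. A lower group held Dusp1 (5.6), Fos (5.08), Ier2 (4.67) and Npas4 (3.11), and Fosb (1.4) and Egr2 (0.46) were lowest. The ranges over mice overlapped between each gene and the next in this order, but all genes were measured in the same mice. Within a mouse, Junb was above Egr1, Egr1 above Nr4a1, Nr4a1 above Dusp1, Ier2 above Npas4 and Fosb above Egr2 in 30 of 30 mice. Arc was above Junb in 28 mice and Npas4 above Fosb in 25. Dusp1 was above Fos in 16 and Fos above Ier2 in 18 of 30 mice, so the order of these 3 was not set apart from the spread of the mice.

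The AP-1 genes were at higher median levels in TIMP2 KO than in WT mice, with wide overlap. Fos (ENSMUSG00000021250, chromosome 12, 85473890 to 85477273) ranged over 4.09, 18.7 and 39.9 CPM (lowest, median and highest of 13) in TIMP2 KO and over 3.36, 7.87 and 33.0 CPM (of 17) in WT mice. Only 2 TIMP2 KO mice were above the highest WT mouse and 3 WT mice were below the lowest TIMP2 KO mouse, although 11 of 13 were above the WT median. Its log2 fold change was 0.75 (SE 0.32). Fosb (ENSMUSG00000003545, chromosome 7, 19302696 to 19310051), the paralog that neurons also splice into the stable ΔFosB form, ranged over 7.56, 9.80 and 19.5 CPM in TIMP2 KO and 6.38, 8.01 and 16.2 CPM in WT mice, a log2 fold change of 0.33 (SE 0.13). Reads of the Fosb forms are summed in this count. Junb (ENSMUSG00000052837, chromosome 8, 84974484 to 84978718) ranged over 50.6, 79.2 and 116 CPM in TIMP2 KO and 44.0, 57.4 and 102 CPM in WT mice, a log2 fold change of 0.32 (SE 0.12). Its exons overlap those of Prdx2 on the opposite strand by 173 bases, and whether counting used the strand is not stated. In bulk tissue, more cells of a type and more RNA per cell cannot be told apart, for these genes as for the others.

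**Figure D1:**
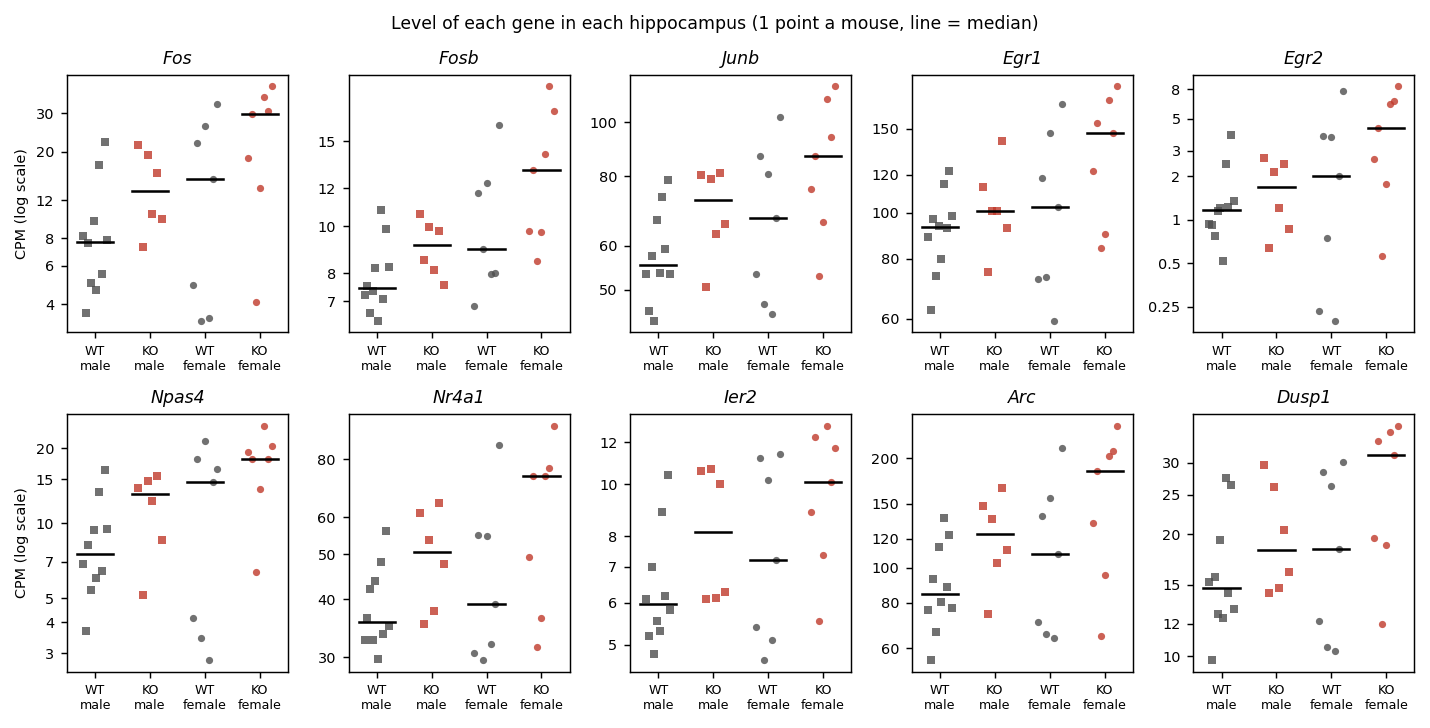
CPM of each gene (log axis) in each of the 30 mice, by genotype and sex (grey WT, red TIMP2 KO, squares males, circles females, line = median of the group). Points of the 4 groups overlap in every panel, and the highest values of Fos, 39.9 CPM, and of Egr2, 8.39 CPM, are from TIMP2 KO females.

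The zinc finger factors stood far apart in level per length, at medians of 22.3 RPKM for Egr1 and 0.46 RPKM for Egr2. Egr1 (ENSMUSG00000038418) ranged over 75.0, 113 and 184 CPM in TIMP2 KO and 59.4, 93.6 and 169 CPM in WT mice, a log2 fold change of 0.31 (SE 0.14). Both groups shared most of that range, with 2 TIMP2 KO mice above and 5 WT mice below the other group. Egr2 (ENSMUSG00000037868, chromosome 10, 67535475 to 67542188), best known for its part in myelination by Schwann cells, was scarce in hippocampus. It ranged over 0.566, 2.45 and 8.39 CPM in TIMP2 KO and 0.201, 1.20 and 7.72 CPM in WT mice, a log2 fold change of 0.69 (SE 0.40). The lowest library held 6 counts of Egr2, so its low values carry the largest counting error of the 10 genes.

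Npas4 (ENSMUSG00000045903, chromosome 19, 4984355 to 4990316), which shapes inhibitory synapses after activity, ranged over 5.13, 14.8 and 24.7 CPM in TIMP2 KO and 2.82, 8.14 and 21.4 CPM in WT mice. Its log2 fold change was 0.59 (SE 0.25), with 1 TIMP2 KO mouse above all WT mice. Nr4a1 (ENSMUSG00000023034, chromosome 15, 101254269 to 101274795) ranged over 31.5, 53.5 and 94.4 CPM in TIMP2 KO and 29.6, 36.4 and 85.9 CPM in WT mice, a log2 fold change of 0.42 (SE 0.15). In both factors, as in Fos, the lowest of all mice was a WT mouse, and the groups overlapped over nearly the whole range. Ier2 (ENSMUSG00000053560, chromosome 8, 84661331 to 84662852) ranged over 5.53, 10.0 and 12.9 CPM in TIMP2 KO and 4.68, 6.10 and 11.4 CPM in WT mice, a log2 fold change of 0.37 (SE 0.15).

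The genes that encode no transcription factor showed the same pattern. Arc (ENSMUSG00000022602, chromosome 15, 74669083 to 74672570) ranged over 65.0, 136 and 246 CPM in TIMP2 KO and 55.7, 88.4 and 213 CPM in WT mice. Its log2 fold change was 0.50 (SE 0.18), with 11 of 13 TIMP2 KO mice above the WT median and 4 of 17 WT mice above the TIMP2 KO median. Dusp1 (ENSMUSG00000024190, chromosome 17, 26505590 to 26562128) ranged over 12.0, 20.5 and 37.1 CPM in TIMP2 KO and 9.78, 15.2 and 30.2 CPM in WT mice, a log2 fold change of 0.42 (SE 0.18). For Dusp1, 4 TIMP2 KO mice were above all WT mice, the most of the 10 genes. Its annotated exons overlap those of Ergic1 on the opposite strand by 11 bases.

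Across the 10 genes the median log2 fold change of TIMP2 KO over WT was 0.42, beside a median near 0 (0.000111) over all genes tested. In edgeR's quasi-likelihood test, 9 of the 10 (all but Egr2) had an unadjusted p under 0.05 and were higher in TIMP2 KO. Of all genes tested, 5.03% had such a p, 2.47% with the higher level in TIMP2 KO. None of the 10 had a Benjamini-Hochberg adjusted p under 0.05, which 0.0546% of all genes had. As the list was chosen with this comparison known, nothing is read from these counts. They rested partly on single mice, since 5 of the 10 had an unadjusted p under 0.05 without mouse 25, a TIMP2 KO female. Among females alone 0 of the 10 had an unadjusted p under 0.05 and among males alone 5, with median log2 fold changes of 0.44 and 0.32, so the median was positive in each sex with fewer mice behind it. Females made up 7 of 13 TIMP2 KO and 7 of 17 WT mice, and with sex as a covariate 8 of the 10 had an unadjusted p under 0.05 and the median log2 fold change was 0.38. Some genes of other lists also had an unadjusted p under 0.05 between genotypes, while the sums of these lists overlapped. Of 12 dentate gyrus granule cell markers, all detected, 5 were lower in TIMP2 KO, beside 2.56% of all genes. None of the 12 passed after adjustment. Their sum had medians of 760.5 CPM (608.9 to 816.4) in TIMP2 KO and 786.9 CPM (688.0 to 1033) in WT mice. Of 6 choroid plexus markers tested, 5 were higher, beside 2.47% of all genes, and 1 passed after adjustment. The sum of all 10 had medians of 164.0 CPM (131.8 to 1135) in TIMP2 KO and 157.1 CPM (125.8 to 177.3) in WT mice. Mouse 11 held the highest sum. Of 13 heat shock genes, 5 were higher and none passed after adjustment. Their sums had medians of 3709 CPM (3537 to 3991) and 3593 CPM (3343 to 3873). The correlation of each list's mean with the mean of the rapid genes over the 30 mice, genotype means removed, was -0.05 for the granule cell markers, -0.08 for the choroid plexus markers and -0.04 for the heat shock genes.

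**Figure D2:**
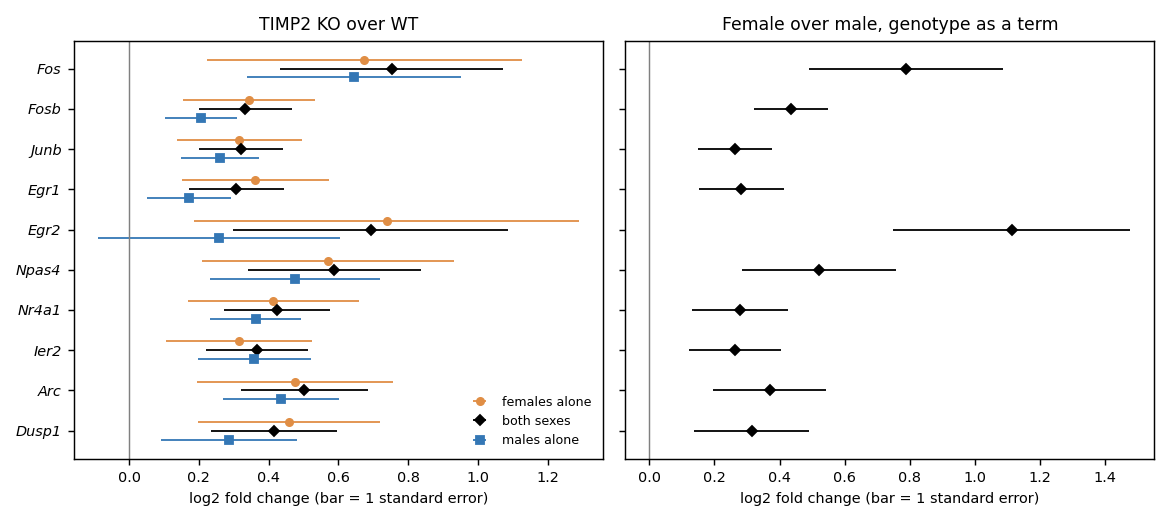
Log2 fold change of each gene with 1 standard error, for TIMP2 KO over WT (left, both sexes and each sex alone) and for female over male with genotype as a term (right). All points lie above 0, from 0.31 for Egr1 to 0.75 for Fos with both sexes on the left and from 0.26 to 1.11 for Egr2 on the right.

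Sex was not used to choose the genes, and females and males were compared in all 30 mice with genotype as a term. All 10 genes had a higher fitted level in the 14 females, and 7 of the 10 had an unadjusted p under 0.05, beside 9.77% of all genes in either direction and 5.14% with the higher level in females. None passed after adjustment over all genes (0.218% of all genes did), and in none of the alternatives was a member's adjusted p under 0.05, with 0.0612 the lowest. The median log2 fold change of the 10 genes was 0.34, against 0.000697 over all genes. Because the levels of the 10 genes were closely correlated across mice, the 7 are not 7 independent results.

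Fosb had the clearest difference between sexes. It ranged over 6.85, 10.7 and 19.5 CPM in females and 6.38, 8.18 and 10.8 CPM in males, and 7 of 14 females were above every male. The log2 fold change was 0.44 (SE 0.11, edgeR adjusted p = 0.111). Egr2 had the largest fold, with 0.201, 3.18 and 8.39 CPM in females and 0.518, 1.21 and 3.85 CPM in males. Its log2 fold change was 1.11 (SE 0.36, edgeR adjusted p = 0.249), and females were at both ends, 5 above every male and 2 below every male. Fos ranged over 3.36, 20.4 and 39.9 CPM in females and 3.66, 8.95 and 22.2 CPM in males, a log2 fold change of 0.79 (SE 0.30, edgeR adjusted p = 0.374). In all 3 genes the females with low values lay within or below the male range, so the sexes overlapped.

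Npas4 ranged over 2.82, 17.3 and 24.7 CPM in females and 3.70, 8.98 and 16.3 CPM in males, with 8 of 14 females above every male and a log2 fold change of 0.52 (SE 0.24). Junb, Egr1 and Arc, the other genes with an unadjusted p under 0.05, had log2 fold changes of 0.26 (SE 0.11), 0.28 (SE 0.13) and 0.37 (SE 0.17). Nr4a1, Ier2 and Dusp1 had values of 0.28 (SE 0.15), 0.26 (SE 0.14) and 0.31 (SE 0.18) and did not pass even without adjustment. The adjusted p-values of these 7 genes in edgeR's test lay between 0.436 and 0.587. Among dentate gyrus granule cell markers, 4 of 12 were higher in females at an unadjusted p under 0.05, beside 5.14% of all genes. After adjustment 2 of them passed, beside 0.218% of all genes in either direction. Their sum had medians of 789.5 CPM (637.8 to 1033) in females and 746.3 CPM (608.9 to 863.4) in males. Of 8 astrocyte markers, 4 were higher in females and none passed after adjustment. Their sum had a lower median in females, 5217 CPM (4916 to 5873), than in males, 5265 CPM (4412 to 5736). The part of these cells in the values of the rapid genes was not tested.

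The count of 7 depended on the test and on single mice. It was 1 with limma's voom and sample weights, 1 in WT mice alone and 5 in TIMP2 KO mice alone, and it was 5 with DESeq2. It was 3 without mouse 9, 10 or 28 and 4 without mouse 6, 19, 20 or 25. Mice 9, 19 and 28 are WT females, mouse 25 is a TIMP2 KO female, mice 10 and 20 are TIMP2 KO males and mouse 6 is a WT male.

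Whether genotype differences depended on sex was tested as an interaction. None of the 10 genes had an unadjusted p under 0.05, beside 2.57% of all genes, and none had an adjusted p under 0.05, as did none of all genes tested (0.0%). DESeq2 and voom also gave 0 of 10 at an unadjusted p under 0.05. The interaction was 0.48 (SE 0.74) for Egr2 on the log2 scale, 0.14 (SE 0.23) for Fosb, 0.03 (SE 0.61) for Fos and 0.04 (SE 0.35) for Arc, so its standard error was at least 0.23 in each of these genes. Differences of that size between the sexes were not detectable with 6 to 10 mice a group. The medians of Fos were 7.74 CPM in WT males, 13.2 CPM in TIMP2 KO males, 15.0 CPM in WT females and 29.9 CPM in TIMP2 KO females. For Arc they were 84.3, 124, 109 and 184 CPM in the same groups. TIMP2 KO females had the highest and WT males the lowest median of each of the 10 genes, with single mice of each group across much of the range.

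Mice of a genotype varied widely in these genes. As the genes were chosen with earlier results of these data known, their spread and its rank are given as a description. The SD of log2 CPM within genotype had a median of 0.507 over the 10 genes and of 0.120 over all genes tested. Egr2 varied most, with an SD of 1.27 and a ratio of 41.6 between its highest and lowest of all 30 mice. Fos (SD 1.04, ratio 11.9) and Npas4 (SD 0.81, ratio 8.76) followed, with SDs above those of 99.9% and 99.7% of all genes tested. Unlike the SDs, these ratios span both genotypes, so the difference between genotypes is part of them. Dusp1 (0.56) and Arc (0.56) had similar SDs, and Junb, the steadiest of the 10 with 0.36, was still above 88.2% of all genes tested. WT mice varied as much as TIMP2 KO mice in Arc, with SDs of 0.53 and 0.59, and in Fos, with 1.09 and 0.96. Differences between the sexes remain in these SDs. In CPM the SD was larger in females than in males of each genotype for all 10 genes, and mean levels were also higher in females. For Arc it was 66.0 CPM in TIMP2 KO females and 33.2 CPM in TIMP2 KO males, and 55.8 and 26.0 CPM in WT females and males.

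Counting error was small beside this spread. The biological coefficient of variation estimated by edgeR ran from 22.5% for Junb to 75.5% for Egr2, with a median of 31.5% over the 10 genes against 6.97% over all genes. The coefficient of variation from counting alone at the median count was 1.80% for Arc and 5.42% for Fos, and it was highest for Egr2, with 14.7%. Counting error of this kind leaves out PCR duplicates, which carry no molecular identifiers. Spread usually grows as a gene becomes scarce, but Arc, Nr4a1 and Egr1 are well covered. Among 6141 genes with a mean log2 CPM over 5, a limit chosen after the values were seen, 6 had an SD at least that of Egr1. These were Arc, Nr4a1 and Egr1, together with Dcn, a fibroblast proteoglycan, Ptgds, an enzyme abundant in meninges, and Gm42418, a transcript that overlaps ribosomal RNA. Dcn is also on the list of CA1 markers used below. Only Dcn had a larger SD than Arc, 0.66 against 0.56.

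**Figure D3:**
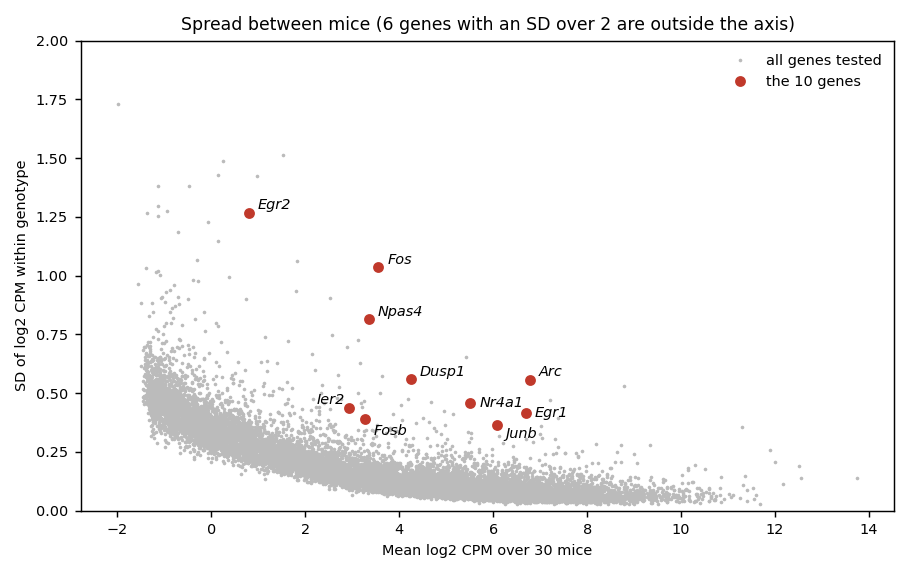
SD of log2 CPM within genotype against mean log2 CPM over 30 mice for all genes tested (grey) and the 10 rapid genes (red). The rapid genes lie above the bulk of genes at their level, from 0.36 for Junb to 1.27 for Egr2, and 6 genes with an SD over 2 are outside the axis.

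Levels of the 10 genes varied together from mouse to mouse. After the mean of each genotype was removed, Pearson's r over the 30 mice was between 0.661 and 0.974 for the 45 pairs of genes, with a median of 0.895 (Spearman 0.902). Of the 45 pairs, 40 had an r over 0.8. Arc and Junb were the closest pair (0.97), followed by Fos and Dusp1 (0.97) and by Fos and Junb (0.95). Fosb stood furthest from the rest, with an r of 0.66 with Npas4 and of 0.83 with the mean of the other 9 genes, where the others had between 0.895 for Npas4 and 0.974 for Fos. Within TIMP2 KO mice the median over pairs was 0.910 and within WT mice 0.899. The first principal component of the 10 genes held 90.0% of their variance and the second 3.99%. These values share libraries, depth and normalization, differences between the sexes remain in them, and they are given as a description.

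Mice kept their rank from gene to gene. The highest level of 7 of the 10 genes was that of mouse 30, which was among the 5 highest in all 10, as were mice 25 and 5, and these 3 are TIMP2 KO females. Mouse 28, a WT female, was among the 5 highest in 9 genes, and mouse 27, a TIMP2 KO female, in 8 and highest in Fosb. At the other end, mouse 21, a WT female, was among the 5 lowest in 9 genes, and mouse 16, a WT female, in 8. Mouse 6, a WT male, was among the 5 lowest in 7 genes. Both ends of the order thus held WT females, and mouse 8, a TIMP2 KO female, had the lowest Fos, Nr4a1, Ier2 and Arc of its genotype.

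Depth moved with this order in part. Mouse 30 had the lowest total (18345517 counts) and mice 27 and 28 had 20327473 and 19698292, but mouse 25 had 32126365. Pearson's r of log2 total counts with the mean of the 10 genes, genotype means removed, was -0.360 over 30 mice (Spearman -0.176) and -0.155 without mice 28 and 30. With log2 total counts as a covariate, 10 of the 10 genes had an unadjusted p under 0.05 between genotypes and 5 between sexes, with median log2 fold changes of 0.46 and 0.30.

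**Figure D4:**
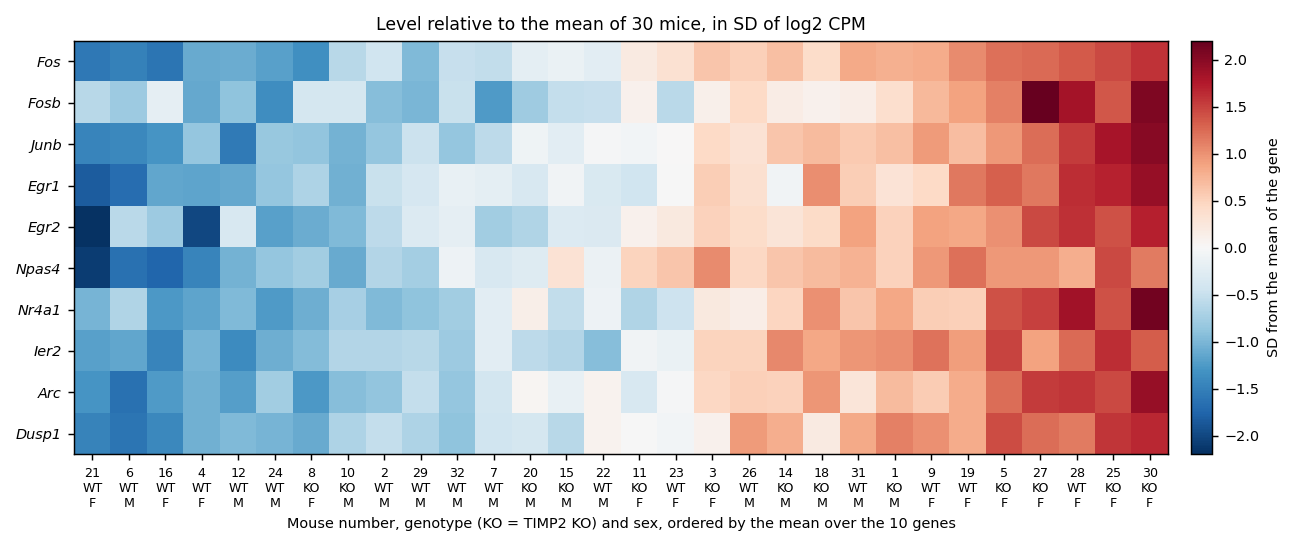
Level of each gene in each mouse in SD of log2 CPM from the mean of the gene (red high, blue low), with mice ordered by the mean over the 10 genes from mouse 21 on the left to mouse 30 on the right. Colour changes from left to right in all 10 rows, and the 5 mice on the right are females, 4 of them TIMP2 KO.

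Other genes with the same order of mice were mostly further immediate early genes. The 10 highest of 16476 other genes, by Pearson's r with the mean of the 10 genes (genotype means removed, n = 30), were Btg2 (0.943), Egr4 (0.936), Apold1 (0.916), Ccn1 (0.902), Sik1 (0.891), Irf2bp2 (0.875), Gadd45b (0.839), Zfp36l1 (0.824), Tiparp (0.806) and Hdx (0.792). Btg2 is an antiproliferative early gene, Egr4 the neuronal relative of Egr1, Apold1 an endothelial early gene, and Sik1 a kinase induced through CREB. Only 9 of the other genes had an r over 0.8, and 170 (1.03%) had an r over 0.5. Of the 10 named, 7 were on a list of 47 other primary response genes and 3, Apold1, Irf2bp2 and Hdx, were on no list. The lowest r were those of Slc1a5 (-0.661), an amino acid transporter, Eif5 (-0.653) and Eif3l (-0.642), translation initiation factors, Wdr1 (-0.640), an actin regulator, and Siah1a (-0.628), a ubiquitin ligase, and 133 genes (0.807%) were under -0.5.

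The wider early response was uneven. Of the 47 other primary response genes, all tested, 21 had an r over 0.5 with the rapid genes, and the mean of the list had an r of 0.927. Jund, an AP-1 partner that is expressed at a steady level, had -0.21, and Jun, present at a median of 145 CPM, had 0.15. Egr3 (0.24) and Nr4a3 (0.27) followed the rapid genes less closely than their paralogs Egr4 and Nr4a1. In the comparison of genotypes, 10 of the 47 were higher in TIMP2 KO at an unadjusted p under 0.05 and 1 was lower, none after adjustment, beside 2.47% of all genes higher. Those with the smallest p were Dusp5 with a log2 fold change of 0.31 (SE 0.10) and Dusp6 with 0.21 (SE 0.07), both phosphatases of ERK, Spry4, an inhibitor of receptor signalling, with 0.20 (SE 0.07), and Ccn1, a matrix protein, with 0.50 (SE 0.18). In the comparison of sexes, 7 of the 47 were higher in females and 1 was lower at an unadjusted p under 0.05, beside 5.14% and 4.63% of all genes. Btg1, an antiproliferative gene, was the only one to pass after adjustment, with a log2 fold change of 0.16 (SE 0.03, edgeR adjusted p = 0.0214). Gadd45g had 0.25 (SE 0.07), Zfp36l1, an RNA-binding protein, had 0.18 (SE 0.06), and Srxn1, an antioxidant enzyme, had -0.06 (SE 0.02).

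Delayed genes, which activity induces later and which encode effectors such as growth factors and synaptic proteins, did not have the same order of mice. None of 25 had an r over 0.5 with the rapid genes, and the r of their mean was -0.00412. Bdnf, the neurotrophin, had an r of -0.17, Homer1, a scaffold of metabotropic glutamate receptors, -0.20, Nptx2, a secreted pentraxin, -0.19, and Nrn1, a neuritin, -0.52. The highest were Plk3 (0.49), a kinase, Rgs2 (0.40), a regulator of G protein signalling, and Baz1a (0.40), a chromatin remodelling subunit. Between genotypes 1 of 25 had an unadjusted p under 0.05, beside 5.03% of all genes in either direction. It was Vgf, a secreted neuropeptide precursor, with a log2 fold change of 0.11 (SE 0.03). Between sexes Homer1 was the only one, with -0.09 (SE 0.04), beside 9.77% of all genes in either direction. Neither gene passed after adjustment, and nothing is read from these 2 counts. The count for Homer1 sums its short activity-induced form and its constitutive forms.

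Transcripts of upstream parts of the pathway did not share the order of mice either, with 1 gene in the opposite direction. The activity of the proteins they encode was not measured. None of 38 genes of signalling from synapse to nucleus and none of 23 transcription factors and co-activators, such as Creb and SRF family genes, had an r over 0.5. Of the 38, 1 was under -0.5, Ppp3cb, a catalytic subunit of calcineurin, with an r of -0.561. Srf itself had the highest value among the factors (0.45). Of the signalling genes, 3 were lower in TIMP2 KO at an unadjusted p under 0.05, Rasgrf2 (log2 fold change -0.08, SE 0.03), a calcium-responsive Ras activator, Mapk3 (-0.07, SE 0.03), which encodes ERK1, and Rps6ka4 (-0.06, SE 0.03), a kinase of CREB and histone H3, beside 2.56% of all genes. None of the 23 factors had such a p. Between sexes, 2 of the 38 signalling genes were higher and 4 lower in females, beside 5.14% and 4.63% of all genes, led by Map2k2 (-0.07, SE 0.03), Braf (-0.08, SE 0.03), Camk4 (-0.10, SE 0.04) and Ppp3cb (-0.05, SE 0.02). Of the factors, Mef2a was lower in females (-0.07, SE 0.03). None of these passed after adjustment.

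No list of cell type markers followed the rapid genes closely. The mean of 11 neocortex markers had an r of 0.40 with them and that of 8 astrocyte markers 0.38, while those of the CA1 (0.07), CA3 (-0.19), microglia (0.10), oligodendrocyte (-0.04), endothelial (0.20), striatum (0.04), thalamus and habenula (0.14) and red blood cell markers (-0.09) were lower. Of 15 glucocorticoid-responsive genes tested the mean had an r of 0.19. Rorb had the highest r of the neocortex markers (0.70). These values moved when mice 28 and 30 were left out, to 0.30 for the neocortex, 0.42 for the astrocyte and 0.42 for the endothelial markers. Neocortex markers summed to between 174.3 and 192.1 CPM in TIMP2 KO and between 169.1 and 198.8 CPM in WT mice, so the groups overlapped, and their part in the level of the rapid genes was not tested.

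**Figure D5:**
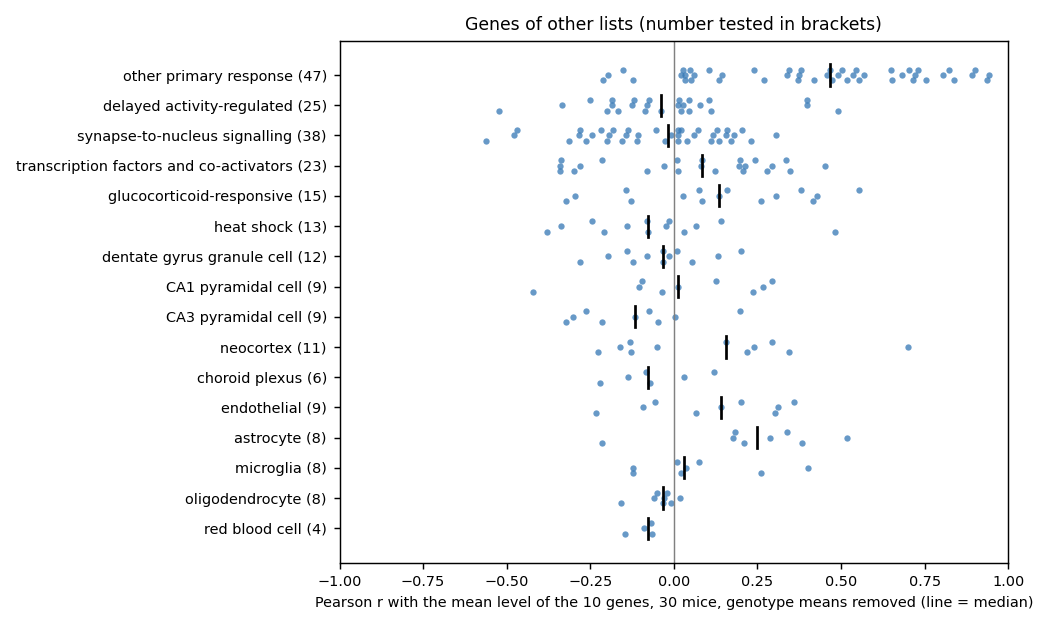
Pearson's r of each gene of 16 lists with the mean level of the 10 rapid genes over 30 mice, genotype means removed (1 point a gene, line = median of the list, number tested in brackets). Other primary response genes reach 0.943 for Btg2 with a median of 0.468, whereas delayed activity-regulated genes are centred on -0.0397.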

How the data were processed

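Hippocampal RNA of 30 mice was sequenced as paired-end 150 base reads from poly(A)-selected libraries. Per the labels and the methods, the authors aligned reads to GRCm38 with STAR 2.5.2b and deposited raw counts of reads per gene without normalization, and the submitters' processing notes also name Trimmomatic 0.36, featureCounts and Subread 1.5.2. The strand setting of the counting is not given in the sources used here. All 30 columns were matched to a mouse by its number, which also names the mice here. Each genotype was taken from the sample labels. Totals of 18345517 to 41081083 counts per mouse set the counting error.

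TMM factors, the filter on low counts (filterByExpr) and quasi-likelihood tests come from edgeR 4.0.16 (R 4.3.3), with Benjamini-Hochberg adjustment over the 16486 genes that passed, and were tested on simulated data. CPM use TMM-scaled library sizes, and log2 CPM a prior count of 2. Genotypes were compared without covariates, sexes with genotype as a term, and their interaction in a model with both. p-values set a difference against the spread between mice, which are treated as independent, and the labels name no litter or harvest date. For their co-expression analysis the authors adjusted the values for isolation or harvest date, a batch effect they call significant. That date could not be fitted here, so it remains in the p-values, the spread and the correlations. Symbols and positions are from GENCODE M21, in which 259 of 49315 identifiers had no entry. Correlations used numpy 2.4.6 and scipy 1.17.1 (Python 3.11.15).

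Members and lists were chosen with earlier results of these data known. The genes named are the 10 members, Timp2, up to 4 genes per related list and contrast with the smallest unadjusted p under 0.05, and the 10 highest and 5 lowest by correlation with the mean of the members. Jund, Jun, Egr3, Nr4a3, Srf, Rorb, Dcn, Ptgds, Gm42418 and the delayed genes other than Vgf and Homer1 were named after their values were seen. Alternatives were DESeq2 1.42.0, limma 3.58.1 voom with sample weights, RLE size factors, no filter, a minimum of 10 counts in each library, other covariates, each sex or genotype alone, and leaving out each mouse. Log2 total counts as a covariate was added after the data were seen.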

Additional observations from a re-analysis of the deposited data

How the results depend on the processing

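The log2 fold changes of the 10 genes kept their sign between genotypes and between sexes in each of the 389 combinations of gene and alternative per comparison. These combinations are not independent, since the genes were closely correlated and 30 alternatives per comparison each left out only 1 mouse. How many had an unadjusted p under 0.05 was less stable. Between genotypes it was 9, against 0 among females, 5 among males, each fitted alone, and 5 to 10 when 1 mouse was left out. Between sexes it was 7, with 1 by limma voom with sample weights, 1 in WT mice alone and 3 to 10 when 1 mouse was left out. It was 9 between sexes without a filter and 6 with a minimum of 10 counts in each library. For the interaction it was 0 in each alternative. In the sex by genotype interaction, Ier2 reversed its sign with voom (0.0925, SE 0.29, against -0.05), a value within its error in both. The cause of these differences was not tested, but groups of 1 sex or genotype hold fewer mice. For the spread between mice, the median SD of the 10 genes lay between 0.506 and 0.509 over the alternatives. For the covariation between mice, the median correlation lay between 0.884 and 0.902.

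The paper states that its controls were littermates in all experiments, but the labels do not give the litter of a mouse. No analysis paired by litter was therefore possible, and mice were treated as independent. Low counts limit Egr2 most, and the 44 groups of 6 to 10 mice examined held no value far from the rest, where 2.2 would be expected by chance. The harvest time, handling and litter of the mice are not in the labels and could not be fitted.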
